A study of Mus musculus with 6 samples.

Results

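A set of 10 receptors, co-receptors and signalling proteins through which cells detect bacterial and viral molecules were followed in newborn mouse intestine. They were chosen by name, as the rows called Tlr2, Tlr3, Tlr4, Tlr5, Tlr9, Ly96, Cd14, Myd88, Nod2 and Tollip, which are 10 of the 54532 genes in each library. Each name had 1 row. All libraries came from intestine of newborn C57BL/6 mice, an inbred laboratory strain. A group of 3 libraries was treated for 5 days with NECA (N-ethylcarboxamidoadenosine, an agonist of adenosine receptors of several subtypes), and a group of 3 with DMSO, the solvent that serves as vehicle control. The series belongs to work on adenosine in necrotizing enterocolitis, an inflammatory bowel disease of newborns. The sources used here do not give the segment of bowel, the route of NECA or the number of animals behind a library, so p-values measure only the spread between these libraries, which may be technical in part. No gene was deleted and no bacteria or endotoxin were named in the labels of either group.

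Toll-like receptors are membrane proteins with an extracellular or lumenal horseshoe of leucine-rich repeats and a cytosolic signalling domain. At the cell surface TLR2 recognises bacterial lipoproteins, TLR5 recognises flagellin, and TLR4 recognises endotoxin once CD14 has handed it to the TLR4 partner MD-2, which Ly96 encodes. In endosomes TLR3 recognises double-stranded RNA and TLR9 recognises unmethylated CpG DNA, while NOD2 senses muramyl dipeptide of the bacterial wall in the cytosol. MYD88 carries the signal of all Toll-like receptors named here except TLR3, and TOLLIP is an adaptor that restrains signalling to NF-kB. In the newborn bowel, TLR4 signalling in the epithelium has been studied as a driver of necrotizing enterocolitis.

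The DNA upstream of 5 of the genes is shown because these 5 had the widest and the narrowest spread over the 6 libraries. The highest library was 3.46 times the lowest for Nod2, 3.27 times for Tlr9 and 3.24 times for Tlr2, but 1.38 times for Tollip and 1.32 times for Myd88. Windows of 250 bases before the RefSeq start site (GRCm38.p6) were used for 7 of the 10 genes, and none was used for Tlr4, Ly96 and Cd14. The sequences are the longest stretch of each window that no GENCODE exon covers, 5′ to 3′ on the strand of the gene, and capitals mark motif matches on either strand.
Tlr2, chr3:83841768-83841858, minus strand: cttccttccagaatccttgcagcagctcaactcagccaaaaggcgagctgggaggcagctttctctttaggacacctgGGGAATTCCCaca
Tlr9, chr9:106222348-106222597, plus strand: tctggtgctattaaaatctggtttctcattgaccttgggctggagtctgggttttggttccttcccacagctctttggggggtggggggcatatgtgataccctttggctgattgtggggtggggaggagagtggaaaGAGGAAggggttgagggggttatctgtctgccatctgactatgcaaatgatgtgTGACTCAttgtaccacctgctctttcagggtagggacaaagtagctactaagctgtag
Nod2, chr8:88647097-88647314, plus strand: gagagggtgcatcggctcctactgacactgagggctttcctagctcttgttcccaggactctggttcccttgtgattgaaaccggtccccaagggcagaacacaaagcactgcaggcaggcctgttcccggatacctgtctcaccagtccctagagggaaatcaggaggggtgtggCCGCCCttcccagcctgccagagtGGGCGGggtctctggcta
Myd88, chr9:119340042-119340268, minus strand: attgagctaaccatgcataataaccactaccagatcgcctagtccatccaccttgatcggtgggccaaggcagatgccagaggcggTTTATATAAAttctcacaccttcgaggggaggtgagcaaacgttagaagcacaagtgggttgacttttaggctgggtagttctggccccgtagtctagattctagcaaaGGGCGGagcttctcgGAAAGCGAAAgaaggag
Tollip, chr7:141902488-141902711, minus strand: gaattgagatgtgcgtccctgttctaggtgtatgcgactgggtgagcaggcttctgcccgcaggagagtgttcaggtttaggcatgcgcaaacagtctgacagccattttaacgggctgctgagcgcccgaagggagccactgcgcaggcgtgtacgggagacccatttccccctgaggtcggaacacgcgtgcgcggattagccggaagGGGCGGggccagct
In the Tlr2 stretch the capitals are a match to the NF-kB consensus on both strands, which 5.00% of 32851 windows hold. The Tlr9 window holds the AP-1 motif (TGACTCA or TGAGTCA, in 4.46% of windows) and a PU.1 core (GAGGAA, in 23.3%), and it has 0 CpG dinucleotides. The Myd88 stretch holds the core of an interferon-stimulated response element (GAAA, any 2 bases and GAAA, in 2.98% of windows), a GC box (GGGCGG, in 32.7%) and a TATA motif (TATAAA, in 12.4%) whose matches on both strands overlap. GC boxes are the capitals in Nod2 and Tollip, and the Tollip window has 17 CpG dinucleotides against a median of 6 over all windows. The RefSeq start site lies within the GENCODE gene by 159 bases for Tlr2, 32 for Nod2, 1393 for Myd88 and 16046 for Tollip, so other start sites of these genes are not covered.

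Total counts ran from 15531996 to 18065078 per library. NECA replicate 2 stood apart: its median correlation with the other libraries across genes was 0.943, against 0.970 to 0.985 for the rest, and mitochondrial genes took 1.31% of its counts, against 2.80% to 8.39%. A bowel position score was the mean log2 level of 12 jejunal genes minus that of 12 ileal genes. It was -3.64 in that library, 3.22 and 1.03 in NECA replicates 1 and 3, and 4.39, 4.43 and 1.28 in DMSO. All 12 jejunal genes had a lower fitted level in NECA (median -0.62) and all 12 ileal genes a higher one (median 1.71), with 0 called. The ileal gene Fabp6 had 1, 3 and 2159 counts with DMSO and 0, 38381 and 2605 with NECA. The level of this marker thus differed widely between libraries of both groups. Whether the sampled segment differed was not tested. The epithelial marker Epcam had a mean of 712 FPKM in DMSO and 787 FPKM in NECA, and all 9 epithelial markers listed were detected in amounts that passed the count filter.

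Per transcript length, the signalling proteins stood far above the receptors. Tollip had a mean of 26.8 FPKM over the 6 libraries and Myd88 14.0 FPKM. Levels of the endotoxin co-receptors followed, with Ly96 at 4.30 and Cd14 at 3.93 FPKM. The receptors themselves were lower: Tlr2 at 1.91, Tlr5 at 1.75, Tlr3 at 1.08, Tlr9 at 0.569, Tlr4 at 0.446 and Nod2 at 0.306 FPKM. Tollip lay above Myd88, Myd88 above Ly96 and Tlr3 above Tlr9 in 6 of 6 libraries without overlap of their ranges. Cd14 lay above Tlr2, and Tlr4 above Nod2, in 6 of 6 libraries although the ranges overlapped. The other neighbours did not differ beyond their spread: Ly96 exceeded Cd14 in 4 libraries, Tlr2 exceeded Tlr5 in 3, Tlr5 exceeded Tlr3 in 4 and Tlr9 exceeded Tlr4 in 4.

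**Figure D1:**
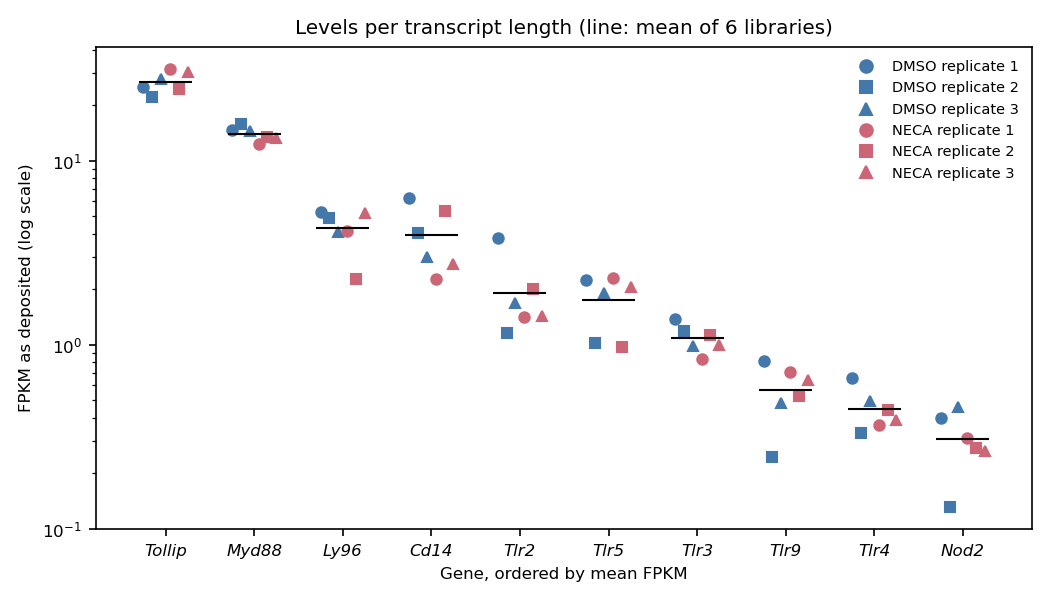
Deposited FPKM (log axis) of the 10 genes in each of the 6 libraries, ordered by mean, with blue for DMSO, red for NECA and a line at the mean of all libraries. Tollip and Myd88 sit at 12.3 FPKM and above in every library, and Tlr9, Tlr4 and Nod2 below 1 FPKM in every library.

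None of the 10 genes passed the test of NECA against DMSO. All 10 passed the count filter, 7 had a lower and 3 a higher fitted level in NECA, and their median log2 fold change was -0.25, where the median of all 15847 genes tested was -0.01. With edgeR and adjustment over all genes, 0 of 10 were called, as were 0 genes in all (0% called, smallest adjusted p = 0.589). At an unadjusted p under 0.05 there were 0 of the 10, beside 5.48% of all genes. DESeq2 called 9 genes (0.0333% called), none of them among the 10. Without NECA replicate 2 the split was again 7 lower and 3 higher, with a median of -0.23. The split moved with the vehicle libraries: it was 6 lower and 4 higher without DMSO replicate 1, with a median of -0.06, 9 lower and 1 higher without DMSO replicate 2 (median -0.27), and 6 lower and 4 higher without DMSO replicate 3 (median -0.28). It was 8 lower and 2 higher without NECA replicate 1 or 3.

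The 3 genes of the endotoxin receptor were lower on average in NECA, by less than the spread between libraries. Tlr4 (ENSMUSG00000039005, chromosome 4, 66827584 to 66930284, GRCm38) encodes the signalling chain. Its counts were 66, 28 and 44 with DMSO and 31, 50 and 38 with NECA. That was 3.68, 1.87 and 2.75 CPM (counts scaled to library size with TMM factors) against 2.003, 2.49 and 2.18 CPM. The NECA libraries lay inside the range of the DMSO libraries, and the log2 fold change was -0.32 (SE 0.33, edgeR adjusted p = 0.780). It was -0.07 without DMSO replicate 1, the highest DMSO library, -0.53 without DMSO replicate 2, the lowest, and -0.62 without both libraries numbered 2. At 28 counts, the lowest library has an exact 95% Poisson interval of 18.6 to 40.5 counts, which covers counting error only.

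Ly96 (ENSMUSG00000025779, chromosome 1, 16688051 to 16709611), whose product MD-2 holds endotoxin in the TLR4 complex, was at 5.41, 5.09 and 4.19 CPM in DMSO and 4.20, 2.34 and 5.34 CPM in NECA. NECA replicate 2 was lowest and the other NECA libraries lay among the DMSO libraries. Fitted over all libraries, the log2 fold change was -0.31 (SE 0.34, edgeR adjusted p = 0.789), against -0.03 without NECA replicate 2, -0.59 without NECA replicate 3 and 0.08 (SE 0.33) with the bowel position score as a covariate. Per length, Ly96 exceeded Tlr4 by 5.12 to 14.8 times, with the smallest ratio in NECA replicate 2 and the largest in DMSO replicate 2.

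Cd14 (ENSMUSG00000051439, chromosome 18, 36725067 to 36726798), which passes endotoxin to that complex, was at 9.88, 6.49 and 4.75 CPM in DMSO and 3.55, 8.42 and 4.31 CPM in NECA. The groups overlapped through NECA replicate 2, which lay above DMSO replicates 2 and 3, whereas NECA replicates 1 and 3 lay below all DMSO libraries. The log2 fold change was -0.37 (SE 0.40, edgeR adjusted p = 0.790). Without NECA replicate 2 it was -0.84 (SE 0.35), with an edgeR adjusted p of 0.848, and with the position covariate -0.82 (SE 0.51). Without DMSO replicate 1 it was -0.06.

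The surface receptors for lipoproteins and flagellin gave no difference larger than their spread. Tlr2 (ENSMUSG00000027995, chromosome 3, 83836272 to 83841767) was at 11.5, 3.55 and 5.13 CPM in DMSO and 4.20, 6.13 and 4.31 CPM in NECA. DMSO replicate 1 was 3.24 times DMSO replicate 2, and the NECA libraries lay between them. Its log2 fold change was -0.46 (SE 0.44, edgeR adjusted p = 0.766), with a 95% interval from -1.48 to 0.55. Its direction rested on DMSO replicate 1, since it was 0.16 (SE 0.33) without that library, whereas it was -0.77 without DMSO replicate 2 and -0.97 without both libraries numbered 2.

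Tlr5 (ENSMUSG00000079164, chromosome 1, 182954788 to 182976044) was at 10.8, 5.02 and 9.19 CPM in DMSO and 10.9, 4.69 and 9.87 CPM in NECA. Replicate 2 was the lowest library of each group, and the other 2 libraries of each group lay at about the same level. Between groups the log2 fold change was 0.02 (SE 0.39, edgeR adjusted p = 0.991), with a 95% interval from -0.89 to 0.93. That interval covers differences in either direction and is not a limit of detection. Its sign turned without DMSO replicate 2 (-0.24), NECA replicate 1 (-0.20) or NECA replicate 3 (-0.10).

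**Figure D2:**
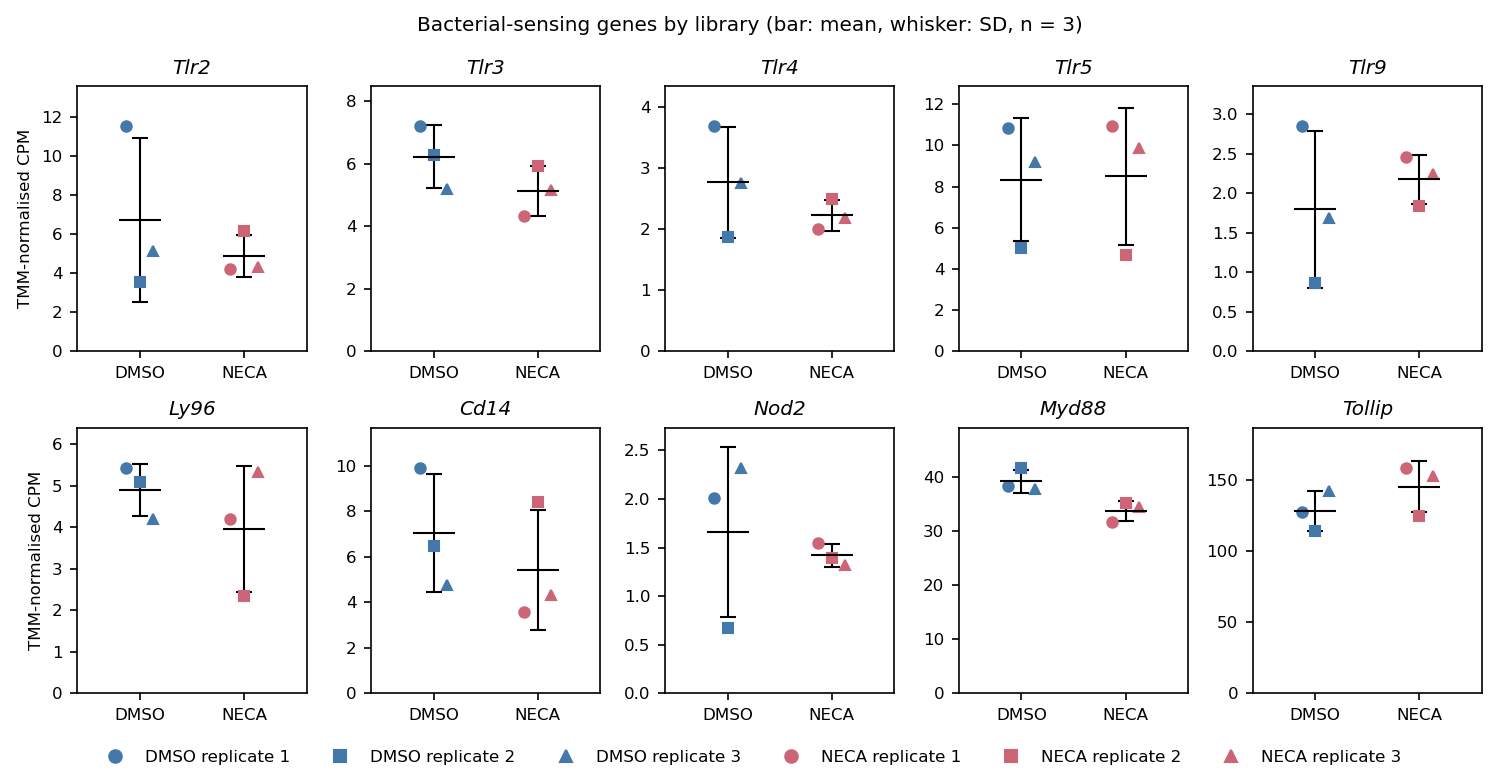
TMM-normalised CPM of each gene by group, with 1 symbol per library, a bar at the mean and a whisker of 1 SD (n = 3), each panel on its own axis from 0. Only Myd88 separates the groups, at 37.6 CPM and above in DMSO and at 35.04 CPM and below in NECA.

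The endosomal receptors differed in sign, and neither passed the test. Tlr3 (ENSMUSG00000031639, chromosome 8, 45395665 to 45411080) was at 7.20, 6.29 and 5.19 CPM in DMSO and 4.33, 5.93 and 5.17 CPM in NECA. NECA replicate 2 lay above DMSO replicate 3 and the groups overlapped there alone. The log2 fold change was -0.27 (SE 0.24, edgeR adjusted p = 0.758), and it stayed between -0.39 and -0.16 under the 14 alternatives tried. Tlr9 (ENSMUSG00000045322, chromosome 9, 106222598 to 106226883) was at 2.85, 0.870 and 1.69 CPM in DMSO and 2.46, 1.84 and 2.24 CPM in NECA. The NECA libraries lay within the DMSO range. The log2 fold change was 0.26 (SE 0.44, edgeR adjusted p = 0.863), 0.75 without DMSO replicate 1 and -0.06 without DMSO replicate 2. DMSO replicate 2 had 13 Tlr9 counts, with an exact Poisson interval of 6.92 to 22.2.

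Nod2 (ENSMUSG00000055994, chromosome 8, 88647315 to 88688474), the cytosolic sensor, was the lowest of the 10 genes per length. Its counts were 36, 10 and 37 with DMSO and 24, 28 and 23 with NECA, or 2.01, 0.669 and 2.31 CPM against 1.55, 1.40 and 1.32 CPM. DMSO replicate 2 was the lowest library and DMSO replicate 3 the highest. The log2 fold change was -0.23 (SE 0.46, edgeR adjusted p = 0.886), -0.60 without DMSO replicate 2 and 0.07 without DMSO replicate 3. The exact Poisson interval of the 10 counts was 4.80 to 18.4.

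Myd88 (ENSMUSG00000032508, chromosome 9, 119335934 to 119341411), the shared adaptor, was the 1 gene of the 10 whose groups did not overlap. It was at 38.2, 41.5 and 37.6 CPM in DMSO and 31.5, 35.04 and 34.4 CPM in NECA, a mean of 39.1 ± 2.08 against 33.7 ± 1.88 CPM (SD, n = 3 per group). All NECA libraries were lower than all DMSO libraries, as in 7.16% of the genes tested (13.7% in either direction). Myd88 had a log2 fold change of -0.22 (SE 0.13, edgeR adjusted p = 0.738), with a 95% interval from -0.52 to 0.09, and it stayed between -0.25 and -0.17 under the 14 alternatives. Myd88 shares 290 exonic bases with Acaa1a on the opposite strand, and since the sources used here do not say whether counting used strand, reads there cannot be assigned to 1 of the genes. Acaa1a was at 146, 147 and 124 CPM in DMSO and 136, 99.2 and 148 CPM in NECA, with groups that overlapped.

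Tollip (ENSMUSG00000025139, chromosome 7, 141874813 to 141918507), the most abundant of the 10, was at 128, 114 and 142 CPM in DMSO and 158, 125 and 153 CPM in NECA. NECA replicate 2 lay below DMSO replicates 1 and 3, and the other NECA libraries lay above all DMSO libraries. Tollip had a log2 fold change of 0.18 (SE 0.16, edgeR adjusted p = 0.758), and between 0.11 and 0.28 under the 14 alternatives. Per length, Tollip was 1.70, 1.40 and 1.92 times Myd88 in the DMSO libraries and 2.55, 1.81 and 2.26 times in the NECA libraries. The ratio in NECA replicate 2 lay below that in DMSO replicate 3, so these ratios overlapped too.

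**Figure D3:**
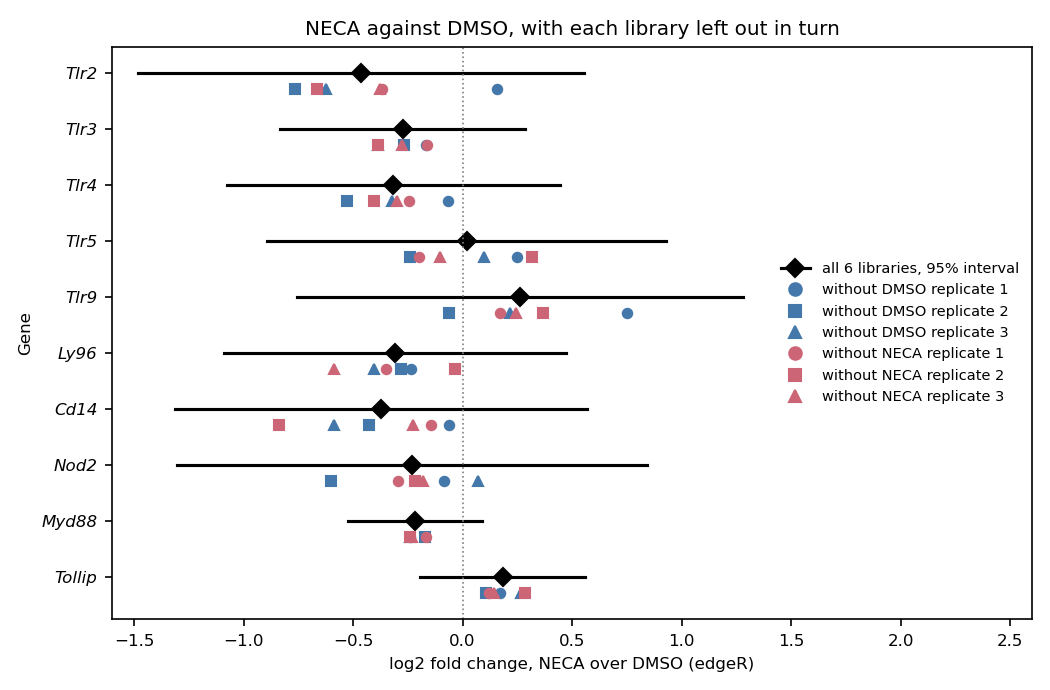
The edgeR log2 fold change of NECA over DMSO for each gene (black diamond) with its 95% interval (black line), and below it the same value with each library left out in turn (coloured symbols). All 10 intervals cross 0, and Myd88 and Tollip move least when a library is left out.

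The libraries of a group were unlike each other in several of these genes. DMSO replicate 1 was the highest of the 6 libraries in Tlr2, Tlr3, Tlr4, Tlr9, Ly96 and Cd14, and DMSO replicate 2 the lowest in Tlr2, Tlr4, Tlr9, Nod2 and Tollip. The SD was 62.6% of the mean in DMSO and 22.3% in NECA for Tlr2, 55.1% and 14.2% for Tlr9, 52.6% and 8.26% for Nod2, and 32.7% and 11.1% for Tlr4. The SD relative to the mean was larger in DMSO for 5 genes, these 4 and Tlr3, and larger in NECA for the other 5, among them Ly96 (12.9% and 38.2%) and Cd14 (37.0% and 48.3%). With 3 libraries a group these spreads are descriptions only.

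Macrophages carry many of these receptors, and markers of macrophages were lower in NECA beside them. All 13 markers listed passed the filter, 13 of 13 had a lower fitted level in NECA (median -0.47), and 0 were called. Their summed level was 723 to 933 CPM in DMSO and 387 to 835 CPM in NECA, the lowest being NECA replicate 2. Without that library 11 of 13 were lower, with a median of -0.31. Csf1r, the growth factor receptor of macrophages, had a log2 fold change of -0.11 (SE 0.46). It was at 292, 338 and 382 CPM in DMSO and 455, 110 and 374 CPM in NECA. NECA replicate 2 was thus its lowest library and NECA replicate 1 its highest. Lyz2, the macrophage lysozyme, had a log2 fold change of -0.56 (SE 0.29). None of the 13 was at 0. An unadjusted p under 0.05 in edgeR was reached by 4 of 13, beside 5.48% of all genes. The groups did not overlap in 4 of 13, with NECA lower, beside 7.16% of all genes in that direction. As 0 genes were called in all, the 0 of 13 called does not settle whether macrophages differed between the groups. Bulk tissue cannot tell the number of macrophages from the RNA per macrophage, and their part in the values of the 10 genes was not tested.

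Of the markers of other cell types 0 were called as well, and their values are given beside those of the 10 genes. An unadjusted p under 0.05 in edgeR was reached by 5.48% of all genes. It was reached by 6 of 9 B cell, 2 of 10 dendritic and 2 of 6 neutrophil and monocyte markers. It was also reached by 1 of 10 T cell and innate lymphoid and 1 of 8 Paneth cell markers. No epithelial, endothelial or mesenchymal marker reached it. All 9 B cell markers had a lower fitted level in NECA (median -2.93, summed 23.2 to 88.5 CPM in DMSO and 10.5 to 21.98 in NECA). Of 10 dendritic and MHC class II genes tested, 9 were lower (median -0.43). Of 6 neutrophil and monocyte markers 3 were lower and 3 higher, with summed levels of 10.0 to 19.1 CPM in DMSO and 9.50 to 27.0 in NECA. The highest of these sums was that of NECA replicate 2, where Ltf alone was at 20.7 CPM. The defining neutrophil gene Ly6g, named after its values were seen, had 1 count in DMSO replicate 1 and 0 in the other libraries. Endothelial markers were lower in 7 of 8 (median -0.23). They summed to 509 CPM in DMSO replicate 1, their highest, 347 CPM in DMSO replicate 2 and 267 CPM in NECA replicate 2, their lowest. Epithelial markers were higher in 9 of 9 (median 0.30), with the highest sum in NECA replicate 2. Paneth cell markers, from the crypt cells in which Nod2 has been studied, were higher in 7 of 8 (median 1.29), with a sum of 14.9 CPM in DMSO replicate 2, where Nod2 was lowest, and 298 CPM in NECA replicate 2, where Nod2 at 1.40 CPM lay below DMSO replicates 1 and 3. T cell and innate lymphoid markers were lower in 10 of 10 (median -0.56). Their sums were 215, 249 and 195 CPM in DMSO and 183, 66.4 and 175 CPM in NECA, with NECA replicate 2 far below the rest. Mesenchymal markers were lower in 7 of 9 (median -0.15). The part of these cells in the values of the 10 genes was not tested.

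The wider sensing system likewise gave no calls. Over 8 lists of related genes, 113 of 129 genes with a row passed the filter, 46 with a higher and 67 with a lower fitted level in NECA, and 0 were called. An unadjusted p under 0.05 was reached by 7 of them, or 6.19%, near the 5.48% of all genes. The groups did not overlap in 5 that were higher and 9 that were lower, beside 6.49% and 7.16% of all genes in those directions. Most genes named below were picked by the smallest p among genes of their list with at least 1 FPKM in the higher group. Separated groups among them therefore do not stand for the lists.

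Of the remaining Toll-like receptors, 6 of 7 were tested, 5 lower and 1 higher in NECA, and their median was -0.48. Tlr11 had 0 to 8 counts and was not tested. Tlr6 (-0.89, SE 0.48), Tlr8 (-0.80, SE 0.49) and Tlr7 (-0.69, SE 0.42) had the smallest p of this list. They were below 1 FPKM in both groups, overlapped between groups and were named after their values were seen. Tlr12, a receptor for a protein of protozoan parasites, was the most abundant of them at 3.78 FPKM in DMSO and 3.19 FPKM in NECA (log2 fold change -0.26, SE 0.23). Tlr1, the partner of TLR2 for triacylated lipoproteins, differed by -0.26 (SE 0.43), by -0.88 without NECA replicate 2 and by 0.04 without NECA replicate 1, and Tlr13, a sensor of bacterial ribosomal RNA, by 0.30 (SE 0.36).

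Among chaperones, cofactors and proteases of the receptors, 5 of 15 were higher and 10 lower, with a median of -0.14. Unc93b1, which carries the endosomal receptors from the endoplasmic reticulum, was at 77.5, 70.1 and 77.8 CPM in DMSO and 52.1, 61.2 and 69.4 CPM in NECA. All NECA libraries were lower, with a log2 fold change of -0.30 (SE 0.15, edgeR adjusted p = 0.738). Ly86, which encodes the MD-1 partner of the TLR4-like protein CD180, was at 9.15, 5.35 and 6.94 against 3.68, 3.69 and 5.28 CPM (-0.76, SE 0.29). Its groups did not overlap either, and it shared the adjusted p of 0.738 in edgeR. Ctsk, a lysosomal protease, differed by -0.38 (SE 0.22).

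Adaptors, kinases and transcription factors downstream of the receptors were split 12 higher and 15 lower among 27 tested, with a median of -0.01. Irf7, the factor that drives interferon genes after TLR9, was at 311, 384 and 306 CPM in DMSO and 225, 134 and 284 CPM in NECA. Every NECA library was lower (log2 fold change -0.64, SE 0.28, edgeR adjusted p = 0.738), with the lowest in NECA replicate 2, without which the value was -0.39. Irf5, a partner of MYD88 in cytokine induction, differed by -0.46 (SE 0.23), and the kinase Tbk1 by -0.26 (SE 0.15). The negative regulators were split 8 higher and 10 lower with a median of -0.03. Their leading gene Socs3, an inhibitor of cytokine signalling, was at 26.1, 32.4 and 23.3 CPM in DMSO and 39.3, 39.1 and 35.8 CPM in NECA, all NECA libraries being higher (0.48, SE 0.16, edgeR adjusted p = 0.738). Nfkbib (0.22, SE 0.20) and Socs1 (0.41, SE 0.39) followed. Socs1 was at 4.80, 4.95 and 6.13 CPM in DMSO and 4.91, 11.6 and 4.54 CPM in NECA, and without NECA replicate 2 its value turned to -0.16, while that of Nfkbib was 0.07.

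Cytosolic sensors and inflammasome genes were split 9 higher and 12 lower among 21, with a median of -0.02. Nlrc4, the scaffold of the inflammasome that responds to flagellin and bacterial secretion proteins, was at 61.7, 53.6 and 67.6 CPM in DMSO and 99.9, 67.6 and 77.6 CPM in NECA, where NECA replicate 2 and DMSO replicate 3 were nearly equal (log2 fold change 0.42, SE 0.18, edgeR adjusted p = 0.738). Naip1, which binds the needle protein of bacterial secretion systems and activates NLRC4, was at 153, 119 and 180 against 193, 212 and 188 CPM (0.39, SE 0.19), all NECA libraries being higher. The flagellin sensors Naip5 and Naip6, named after their values were seen, overlapped between groups, at 63.3, 75.8 and 86.6 against 83.9, 101 and 67.3 CPM for Naip5 (0.16, SE 0.19) and at 93.5, 75.5 and 134 against 121, 162 and 115 CPM for Naip6 (0.39, SE 0.24). Reads of Naip1 and its close copies Naip2, Naip5 and Naip6 may be split between them, so the values of these genes are uncertain. Casp4, the endotoxin-sensing caspase, differed by -0.46 (SE 0.23). Slc15a2, below 1 FPKM in both groups and named after its values were seen, was lower in all NECA libraries (-0.70, SE 0.29). Nod1, the relative of NOD2, and Nlrp6, a sensor of the gut epithelium, were added after their values were seen. Nod1 was at 2.76 FPKM in DMSO and 2.86 FPKM in NECA, and Nlrp6 at 44.4 and 43.6 FPKM, both far above Nod2 at 0.328 and 0.283 FPKM.

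Some genes listed under the handling of bacterial wall and endotoxin differed widely among libraries. Aoah, an enzyme that removes acyl chains from endotoxin, was at 9.10, 7.70 and 9.38 CPM in DMSO and 4.20, 3.64 and 5.45 CPM in NECA. All NECA libraries were lower than all DMSO libraries, with a log2 fold change of -0.98 (SE 0.24), and the edgeR adjusted p was again 0.738. Ltf, the iron-binding antimicrobial lactoferrin, reached 40, 30 and 85 counts with DMSO and 60, 415 and 85 with NECA (1.63, SE 0.70; 0.46 without NECA replicate 2), and Lbp, the endotoxin-binding protein of plasma, differed by 0.57 (SE 0.41). In that list 6 of 8 tested genes were higher, with a median of 0.35, and the 2 lower were Aoah and Alpi. The 6 include Akp3 at 0.002 (SE 0.99) and the acyl-CoA thioesterase gene Acot11 at 0.28 (SE 0.23), both named after their values were seen. The list is thus not of endotoxin-binding genes alone. Alpi, named after its values were seen, was the most abundant gene of the list, at a mean of 1008 FPKM. It was at 2584, 2950 and 2649 CPM in DMSO and 2653, 939 and 2466 CPM in NECA (-0.43, SE 0.39). Of the 4 peptidoglycan and lysozyme genes tested, Lyz1 (0.97, SE 0.50) and Pglyrp1 (0.69, SE 0.37) had higher fitted levels in NECA, and Lyz2 and Pglyrp2 lower, Pglyrp2 being named after its values were seen. Pglyrp1 was at 38.1, 29.6 and 32.9 CPM in DMSO and 30.8, 90.8 and 41.1 CPM in NECA. Without NECA replicate 2 Pglyrp1 differed by 0.10, Lyz1 by 0.47 and Lyz2 by -0.31, and the median of the list went from 0.07 to -0.10. Pglyrp3 and Pglyrp4 had 0 counts in every library.

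Genes that NF-kB signalling induces ranged widely in level. Nfkbia, the feedback inhibitor of NF-kB, named after its values were seen, had a mean of 29.1 FPKM over the 6 libraries. Of 26 listed, 18 passed the filter, and Il6, Il12b, Il10, Cxcl1, Cxcl2, Cxcl3, Cxcl5 and Saa2 had at most 15 counts in any library and were not tested. Among the 18, 5 were higher and 13 lower with a median of -0.15, and 3 of 18 and 15 of 18 in the same directions without NECA replicate 2, with a median of -0.29. Ccl2, a chemokine for monocytes, reached 20, 21 and 18 counts with DMSO and 8, 11 and 5 with NECA (log2 fold change -1.41, SE 0.39, edgeR adjusted p = 0.738). Vcam1, an adhesion molecule for leukocytes, was at 13.7, 13.5 and 11.1 CPM in DMSO and 9.24, 6.13 and 9.36 CPM in NECA (-0.63, SE 0.23). Sod2, the mitochondrial superoxide dismutase, differed by -0.23 (SE 0.12). In these 3 genes, named for the smallest p of their list at 1 FPKM or more, all NECA libraries were lower than all DMSO libraries. That held for 7.16% of all genes tested, and none of the 3 was called.

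**Figure D4:**
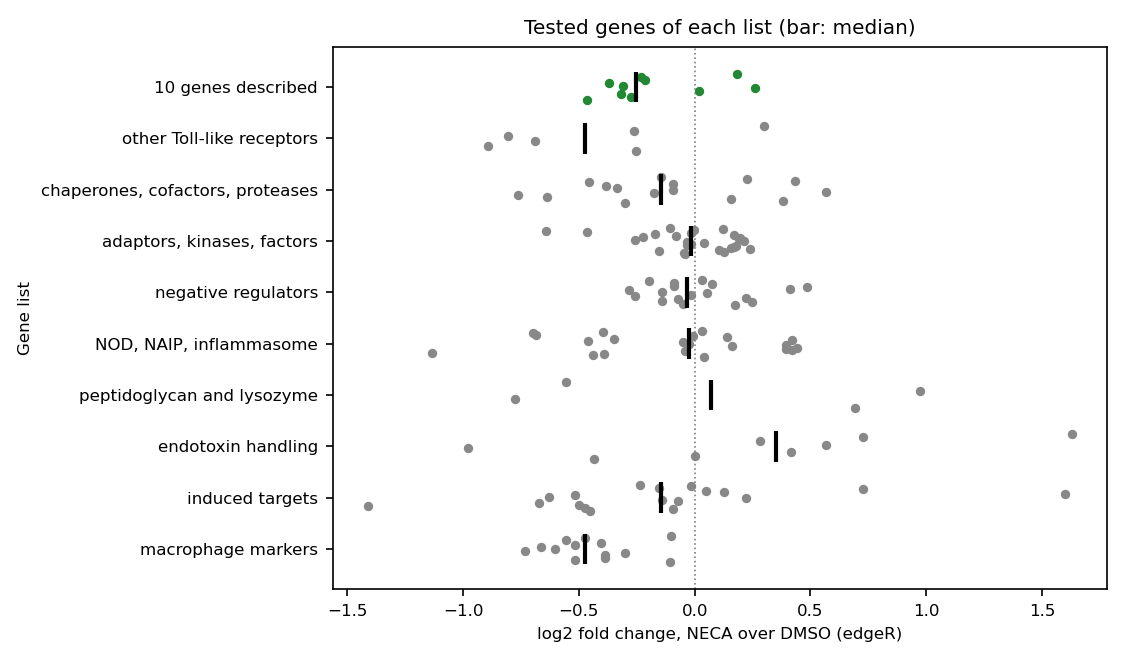
The edgeR log2 fold change of NECA over DMSO for each tested gene (points) of the 10 genes described (green), the 8 related lists and the macrophage markers (grey), with a bar at each median. The medians run from -0.48 for other Toll-like receptors to 0.35 for endotoxin handling, beside -0.25 for the 10 genes.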

How the data were processed

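RNA was measured in 6 libraries of newborn mouse intestine. Per the labels' protocols, SMARTer cDNA was PCR-amplified, fragmented and sequenced in paired ends. PCR copies are not independent molecules, so Poisson intervals cover counting error alone. Each file deposited by the authors holds raw counts and, beside them, FPKM values per gene, per the file headers. The submitters' processing notes name HISAT, StringTie, edgeR, mm10 and GRCm38; versions, parameters, strand use and handling of multiply matching reads: not given in the sources used here. Counts were tested with edgeR 4.0.16 in R 4.3.3 (glmQLFit and glmQLFTest, filterByExpr with a minimum count of 10 and total of 15, TMM factors, no covariates), NECA against DMSO, two-sided, Benjamini-Hochberg adjusted over 15847 genes at 0.05. SEs were derived from the F statistics. Deposited FPKM served only to compare levels between genes. Coordinates are from GENCODE M21 (GRCm38). The members, lists and tests were chosen with earlier results of these data known. Named genes were all 10 members, up to 3 genes per related list with the smallest p and at least 1 FPKM in the higher group, and for levels the 2 most abundant genes of each marker list; some of the latter are not described. Alternatives were DESeq2 size factors, no filter, 5 CPM in at least 3 libraries, a replicate block, each library left out, both libraries numbered 2 left out, DESeq2 1.42.0, a bowel position covariate and robust dispersions. Medians of lists without NECA replicate 2, and named list genes without each library, were added after seeing the data. The code was tested on simulated data.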

Additional observations from a re-analysis of the deposited data

How the results depend on the processing

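No member was called under any of the 14 alternatives. Of 136 member values under these alternatives, 129 kept their direction and 7 turned. Robust dispersions left the log2 fold changes as they were and could not turn a sign. DESeq2 size factors, no filter and the DESeq2 test used the same 6 libraries and gave nearly the same values, so 129 overstates the stability. The sign turned for Tlr2 without DMSO replicate 1 (0.16), for Tlr5 without DMSO replicate 2 (-0.24), NECA replicate 1 (-0.20) or NECA replicate 3 (-0.10), for Tlr9 without DMSO replicate 2 (-0.063), for Nod2 without DMSO replicate 3 (0.072) and for Ly96 with the position covariate (0.083). The cause was not tested, beyond that fewer libraries entered the fits without 1. Over the fits without 1 library, Tlr2 ran from -0.77 to 0.16, Tlr5 from -0.24 to 0.32, Tlr9 from -0.06 to 0.75 and Nod2 from -0.60 to 0.07. The median of the tested members ran from -0.28 (without DMSO replicate 3) to -0.06 (without DMSO replicate 1) over these fits, and was -0.30 with the position covariate. Genes called over the whole table were 0 with edgeR except without a filter, where 2 were called, and 9 with DESeq2. Under the filter of 5 CPM, Tlr4, Tlr9, Ly96 and Nod2 were no longer tested. No pairing by replicate number was seen: the correlations of same-numbered deviations were 0.01, -0.19 and -0.02, and not every library correlated best with its own number. These deviations were taken from the mean of each group and are not independent, so the correlations cannot decide whether libraries were paired. The replicate block called 0 genes, with a median of -0.24 over the members. Among the lists, the median of adaptors and kinases went from -0.01 to 0.03 without NECA replicate 2, and that of NF-kB targets from -0.15 to -0.29. Depth limits Nod2, Tlr9 and Tlr4 most, with 10, 13 and 28 counts in their lowest library.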
